A study of Homo sapiens with 8 samples.

Results

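The library labelled VCaPENZR was set beside the library of enzalutamide-sensitive CWR-R1 cells to see how far its RNA departs from that line. These are 2 of the study's 8 libraries, picked by their labels alone, and they were compared over the 13910 genes that both deposited tables list. The study sequenced polyadenylated RNA from human prostate cancer cell lines, each as a form sensitive to enzalutamide and a resistant form whose name ends in ENZR. CWR-R1 comes from a relapsed prostate xenograft, and VCaP, the line that the label VCaPENZR refers to, comes from a vertebral metastasis and carries a fusion of TMPRSS2 with ERG. The CWR-R1, CWR-R1ENZR, VCaP and VCaPENZR groups hold 1 library each, and the labels give the 4 of them the cell type prostate cancer and no genotype. C4-2B and C4-2BENZR, which hold 2 libraries each of cells with a luciferase + GFP transgene, served here only to show how far replicate libraries differ. No source used here gives the enzalutamide dose, its duration, the culture conditions or whether a resistant line is 1 clone.

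Enzalutamide binds the androgen receptor, a transcription factor that androgens activate, and keeps it from driving its target genes. In luminal prostate cells those targets include the kallikreins KLK2 and KLK3 (prostate-specific antigen), FKBP5 and TMPRSS2, and their messages are commonly read as a gauge of receptor activity. Resistant lines are known to restore that activity, to turn to the related glucocorticoid receptor, or to grow with little of it.

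Several values of this library were far from those of VCaP, the line of its label. ERG was at 428 in VCaP and at 0.179, or 3 reads, in the library labelled VCaPENZR, both on the authors' deposited scale within 1 table, and the CWR-R1 table does not list ERG. KLK2 was at 4945 and 0.953, and KLK3 at 465 and 0.774, in the same order and on the same scale. KLK3 was also lower in C4-2BENZR (49.2 and 48.1) than in C4-2B (2067 and 2024), within their own table. KLK2 was higher there, at 211 and 225 against 107 and 109. Whether resistance to enzalutamide lowered ERG or the kallikreins in the library labelled VCaPENZR was not tested. Between VCaP and CWR-R1, 345 genes differed by at least 16-fold, 142 higher in VCaP and 203 higher in CWR-R1. At 288 of these genes (83.5%) the library labelled VCaPENZR was nearer to CWR-R1, at 57 (16.5%) it was nearer to VCaP, and it lay within 2-fold of CWR-R1 at 176 and of VCaP at 14. Some cancer-testis genes, normally silent outside the germ line, had no read in VCaP and some did (these 3 examples were chosen after their values were seen). In reads per 1e+06 reads (RPM) over the genes of both tables, MAGEA4 was at 212 in CWR-R1ENZR, 306 in the library labelled VCaPENZR, 381 in CWR-R1 and 0 in VCaP, and CTAG1B at 115, 161, 148 and 0. TEX15, of the same list, was at 2.76, 3.39, 28.5 and 27.6 in that order of libraries, so that CWR-R1 and VCaP stood together. MAGEA4 and CTAG1B have near-identical copies, so reads may be shared among them. Because of ERG and the kallikreins it is called the library labelled VCaPENZR throughout, and nothing below is a statement about VCaP cells.

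Reads in listed genes numbered 16235796 in the library labelled VCaPENZR and 15249294 in CWR-R1, and 14503586 to 20248655 over the 8 libraries. A level below is in RPM, counted over the shared genes only, since the tables were normalized separately by the authors. Where a pair of levels is given, the first belongs to the library labelled VCaPENZR and the second to CWR-R1. A log2 ratio is log2 of (level + 1) in the first over (level + 1) in the second, which understates the difference of low genes, and a fold is the plain ratio of levels. There is 1 library on each side, so no test was possible: intervals in brackets are exact 95% binomial intervals of counting error only, and a gene with 0 reads is set at 3 reads, a level of 0.185 in the library labelled VCaPENZR and of 0.197 in CWR-R1. Levels depend on gene length, so they are compared between libraries and not between genes.

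The library labelled VCaPENZR differed from CWR-R1 at many genes, a few of them by large folds. Of the 12048 genes at 5 RPM or more in either library, 1030 (8.55%) were at least 2-fold higher, 1356 (11.3%) were at least 2-fold lower, and 2386 (19.8%) were apart in either direction. The median gene differed by 1.36-fold in size and by -0.11 on the log2 scale in direction. At the far end, 737 genes were at least 4-fold apart, and at 16-fold or more 64 were higher and 52 lower in the library labelled VCaPENZR. Across all 13910 shared genes, with no filter on level, the log2 levels had a Pearson r of 0.885. That is a description over genes of 1 library a side, which are not independent replicates. Scaling by median-of-ratios size factors shifted the median of all genes by 0.13, and the split of genes apart became 1187 higher and 1105 lower.

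Replicate libraries of another line differed far less. Of the genes counted by the same rule, 0.191% (21 of 10970) were 2-fold apart between the C4-2B replicates and 0.107% (12 of 11230) between the C4-2BENZR replicates, and their median gene differed by 1.06-fold. The share between CWR-R1ENZR and CWR-R1 was 20.04%, with 1387 genes higher and 1109 lower and a median size of 1.37-fold. That pair shares the CWR-R1 library with the main comparison, so the values are only set side by side. Between the library labelled VCaPENZR and CWR-R1ENZR 14.2% of genes were apart, 479 higher and 1235 lower. Against VCaP, the line of its label, the library labelled VCaPENZR was apart at 43.2% of genes, and VCaP and CWR-R1 were apart at 39.1%. The plot of shares apart shows these pairs together: the library labelled VCaPENZR was apart from VCaP at more genes than from CWR-R1 or CWR-R1ENZR.

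**Figure D1:**
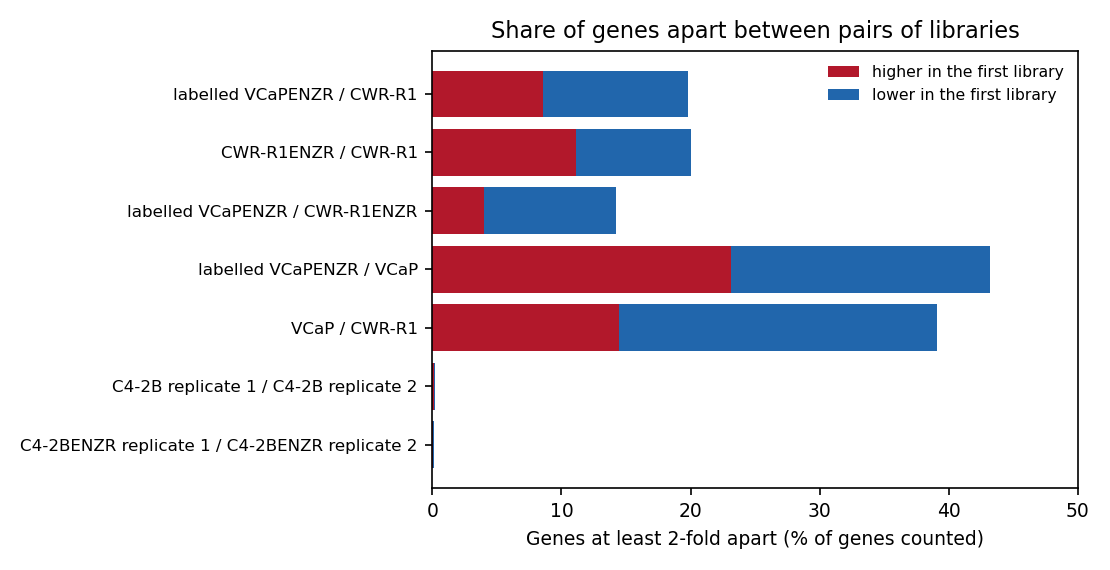
Share of counted genes at least 2-fold apart (horizontal axis, percent) for 7 pairs of libraries, split into genes higher (red) and lower (blue) in the library named first. The library labelled VCaPENZR was apart from CWR-R1 at 19.8% of genes and from VCaP at 43.2%, and the replicate pairs were apart at 0.191% and 0.107%.

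**Figure D2:**
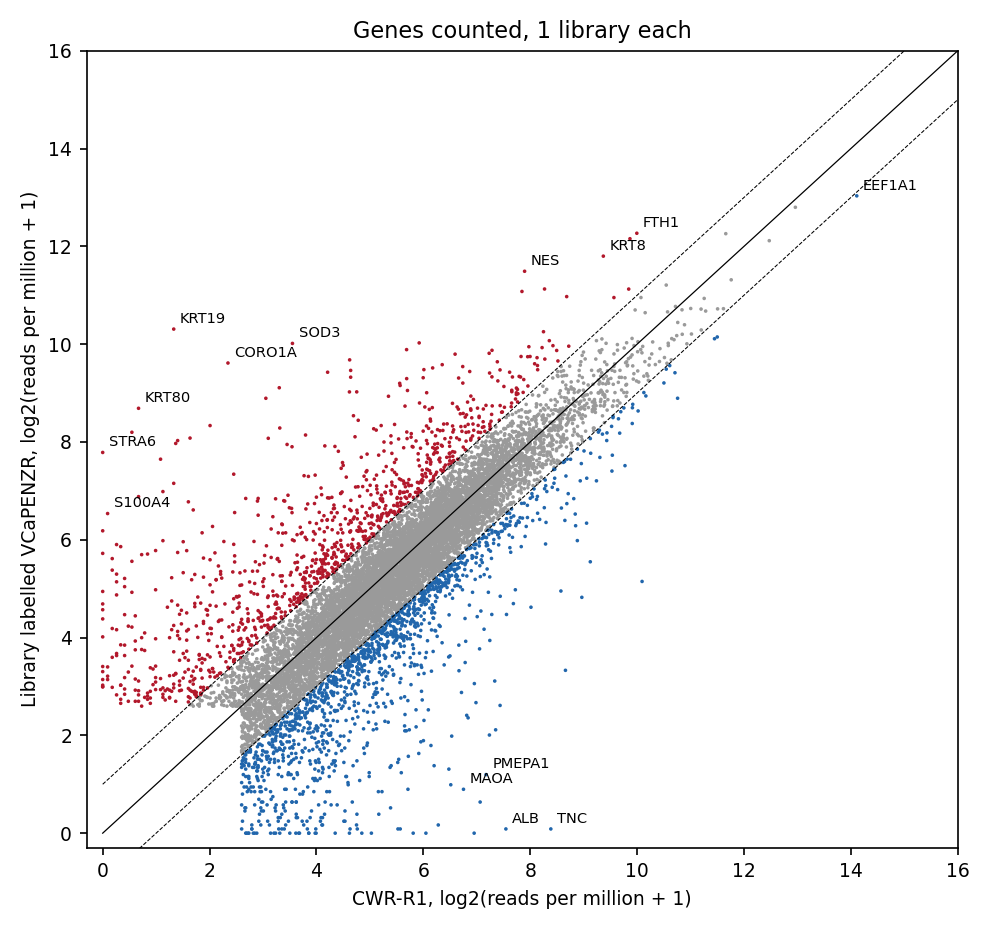
Levels of the 12048 counted genes in CWR-R1 (horizontal axis) and in the library labelled VCaPENZR (vertical axis), both as log2(RPM + 1). The solid line marks equal levels and the dashed lines 2-fold, with the 1030 higher genes in red and the 1356 lower genes in blue; KRT19 and STRA6 stand at the upper left, TNC and ALB at the lower right.

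The genes with the highest ratios were led by epithelial structural genes that CWR-R1 hardly held. KRT19, a keratin of simple epithelia, was at 1267 against 1.51, which is 838-fold (558 to 1322), and CWR-R1ENZR and VCaP stood between at 336 and 128. KRT80, a keratin of differentiating epithelium, was at 412 against 0.592, or 695-fold (366 to 1521). TGM3, a transglutaminase that crosslinks proteins in stratified epithelium, was at 293 against 0.460, and its level of 512 in CWR-R1ENZR was the highest of the 4 libraries. These 3 genes rested on 7 to 23 reads in CWR-R1, and their intervals of counting error all lie far above 1.

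Other leaders belong to retinoid uptake, the actin cortex, kinase feedback and oxidant defence. STRA6, the membrane receptor for retinol-binding protein, had no read in CWR-R1 and 219.6 in the library labelled VCaPENZR, at least 1113-fold higher; CWR-R1ENZR had 14.7 and VCaP 1 read. CORO1A, an actin-binding protein best known from blood cells, was at 783 against 4.08 (192-fold), with 281 in CWR-R1ENZR and 0.279 in VCaP. DUSP5, a nuclear phosphatase that shuts off ERK, was at 249.7 against 1.58, or 158-fold (106 to 247). SOD3, the secreted superoxide dismutase, was at 1034 against 10.7, or 96.4-fold (82.7 to 113), and CWR-R1ENZR was at 748. The calcium-binding proteins S100P and S100A4 were at 260.1 against 1.64 and 91.8 against 0.0658; the latter had 1 read in CWR-R1, which gives a ratio of 1396 (250.2 to 55184). SPNS2, the exporter of sphingosine 1-phosphate, was at 199.5 against 1.12, the proteoglycan SPOCK1 at 269.5 against 2.10 and the raft protein MALL at 322 against 3.02.

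The genes with the lowest ratios were of many kinds. TNC, the matrix glycoprotein tenascin C, was at 1 read, or 0.0616, against 333, a ratio of 5411 (971 to 213748), and CWR-R1ENZR was at 33.02. ALB, serum albumin, was at 1 read against 186 and also at 1 read in CWR-R1ENZR. SYT4, a synaptotagmin of secretory vesicles, had no read against 123, at least 664-fold lower, and NPTX2, a neuronal pentraxin, was at 0.555 against 133, or 239-fold lower (126 to 524). Both genes were low in CWR-R1ENZR as well, at 8.63 and 3.11.

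Several of the lowest genes were well expressed in VCaP. PMEPA1, an androgen- and TGF-beta-induced feedback gene, was at 1.29 against 143, 111-fold lower (72.3 to 179), with 1903 in VCaP. MAOA, monoamine oxidase A, was at 0.863 against 107, 124-fold lower (73.5 to 227), with 165 in VCaP. DDC, which makes dopamine and serotonin, was at 1 read against 46.4, with 104 in VCaP, and ASB9, a substrate adaptor of a ubiquitin ligase, had no read against 55.1, with 52.8 in VCaP. GPX1, the main cytosolic glutathione peroxidase, held 2 reads in the library labelled VCaPENZR against 76.7 in CWR-R1, a ratio of 622 (172 to 5143), while CWR-R1ENZR and VCaP were at 44.3 and 246. NID1, a basement membrane linker, was at 0.986 against 90.3, with 52.2 in CWR-R1ENZR and 2.06 in VCaP. GUCY1B3, a subunit of the nitric oxide receptor, had no read against 65.2, and SDK1, a cell adhesion molecule, 1 read against 45.04.

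**Figure D3:**
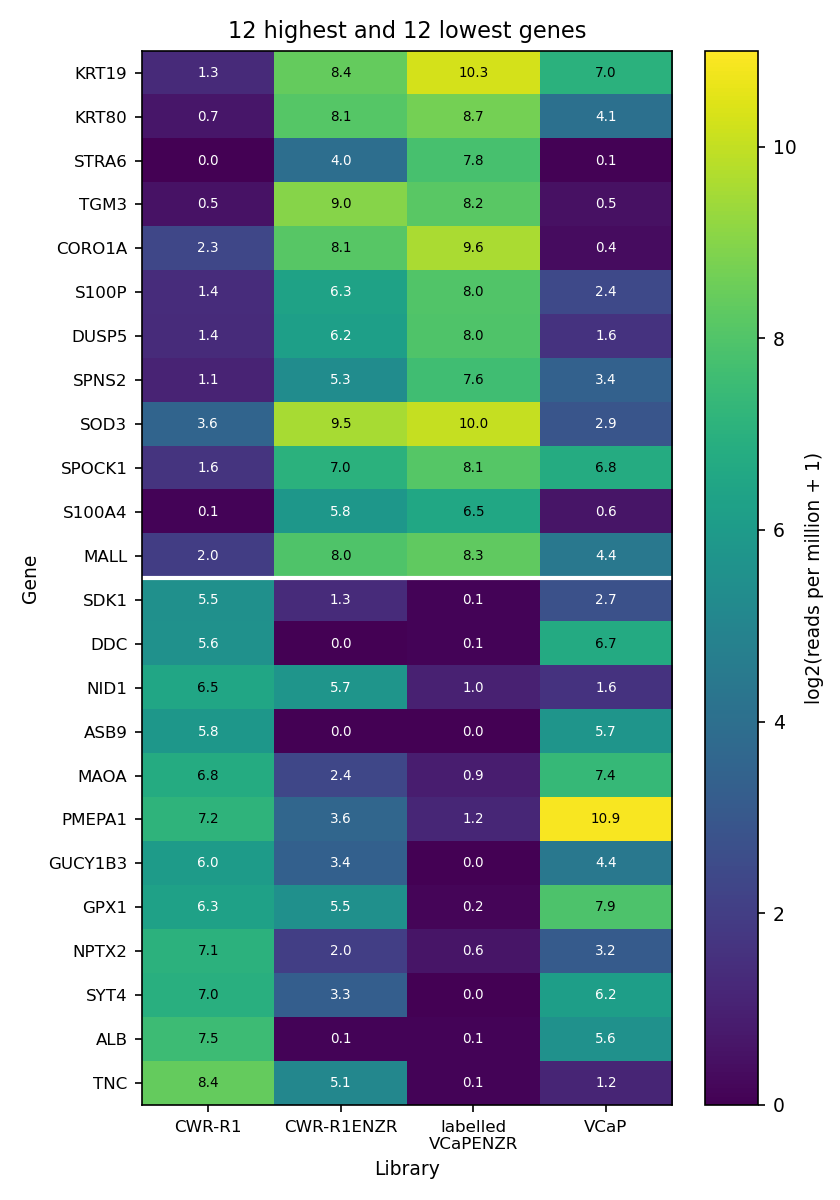
Levels, as log2(RPM + 1), of the 12 genes with the highest and the 12 with the lowest log2 ratio, in the 4 libraries named along the horizontal axis; colour and the printed value give the level. The upper block runs from KRT19, at 1.51 in CWR-R1 and 1267 in the library labelled VCaPENZR before the log, and the lower block ends with TNC, at 333 and 1 read.

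Ranked by level in place of ratio, the largest difference was a lower level of EEF1A1, the elongation factor that brings tRNA to the ribosome, at 8378 against 17685 (2.11-fold lower), and the largest gain was of FTH1. FTH1, the ferritin heavy chain, was at 4931 against 1019 (4.84-fold), and CWR-R1ENZR was at 1117. ALDOA, a glycolytic aldolase, was at 4563 against 932 (4.89-fold), and KRT8, the partner of KRT18 in simple epithelia, at 3564 against 659.8 (5.40-fold). NES, the intermediate filament nestin, was at 2877 against 237 (12.1-fold), with 7.13 in VCaP, CD9, a tetraspanin, at 2160.2 against 229 (9.43-fold), and ATP1B1, a sodium pump subunit, at 2008 against 409.8 (4.90-fold). ACTB, beta-actin, was at 4901 against 3233, or 1.52-fold. After EEF1A1 the largest losses were of TUBA1B, an alpha-tubulin, at 1133 against 2895, ATP5B, the beta subunit of ATP synthase, at 1105 against 2793, RPLP0, a ribosomal stalk protein, at 1692 against 3137, and SCD, the stearoyl-CoA desaturase, at 475 against 1730.3. EEF2, RPS2 and PABPC1, all of translation, followed and were 1.28-, 1.72- and 1.88-fold lower.

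The gene groups below hold 1378 genes in 46 lists, of which 1080 were in both tables and 969 were counted. They are described by counts and by the median log2 ratio, to be read against 8.55% higher, 11.3% lower and a median of -0.11 over all counted genes.

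**Figure D4:**
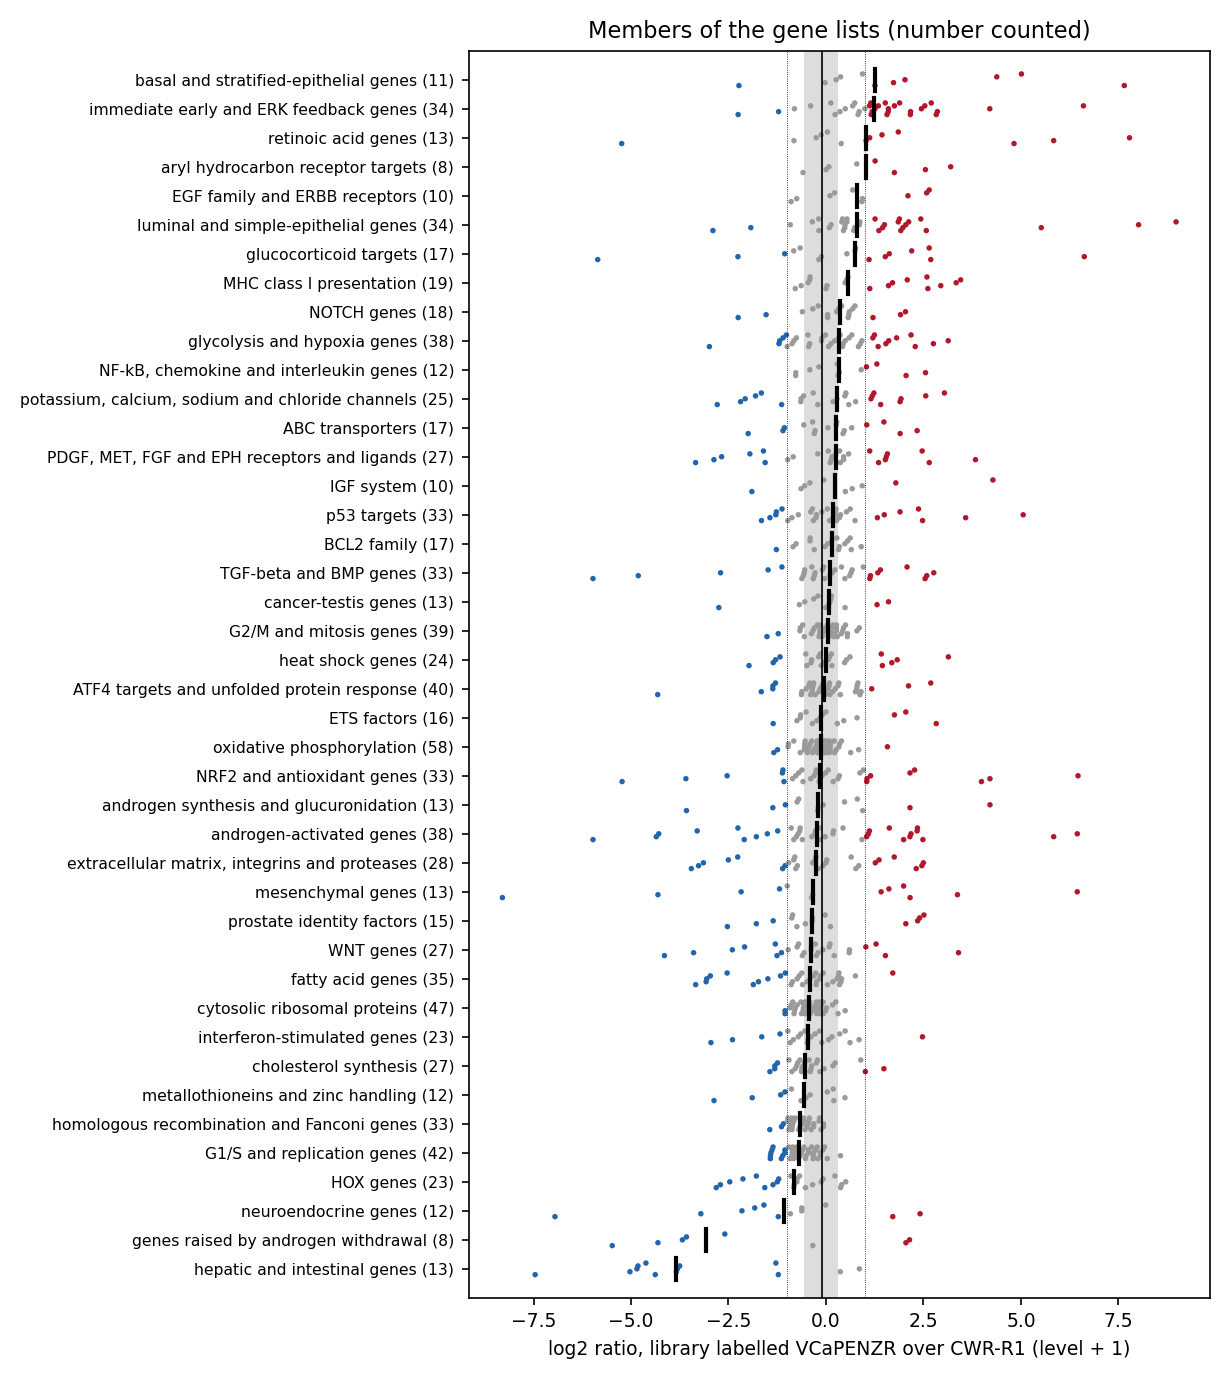
Log2 ratio of the library labelled VCaPENZR over CWR-R1 (horizontal axis) for the counted members of each list with at least 8 of them (number in brackets); red and blue points are at least 2-fold higher and lower, the black bar is the list's median, the grey band spans the middle 50% of all counted genes (-0.56 to 0.30) and the long line is their median, -0.11. Basal and ERK feedback genes lie to the right, with medians of 1.26 and 1.22, and hepatic genes to the left, with a median of -3.84.

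Classical androgen targets were scattered rather than shifted together. Of 38 counted androgen-activated genes 12 were at least 2-fold higher and 9 lower, with a median of -0.22. The kallikreins KLK3 and KLK2 were low on both sides, at 0.801 against 1.91 and 0.986 against 4.60, each under the level of 5. VCaP held 455 and 4841 of them. Other kallikreins of the list were lower, KLK4 at 14.4 against 151 and KLK15 at 0.801 against 6.71. FKBP5, the co-chaperone that dampens steroid receptors, was at 182 against 874, 4.80-fold lower (4.62 to 5.001), and the metalloreductase STEAP2 at 1.36 against 47.1, 34.7-fold lower (22.8 to 55.8). In the other direction TMPRSS2, a surface protease, was at 134 against 25.6, 5.24-fold higher (4.71 to 5.86), and ALDH1A3, which makes retinoic acid, at 474 against 7.30, 65.00-fold higher (53.9 to 79.1). The transporter ABCC4 was at 353 against 69.04, the same as in CWR-R1ENZR (351).

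Most counted genes of those that androgen withdrawal usually raises were lower. Of 8 counted, 5 were at least 2-fold lower and 2 higher, with a median of -3.09, or -1.63 over the 10 in both tables with no filter on level. The counted members are those above 5 RPM on one side, so the size of this median rests partly on that choice. UGT2B15, which inactivates androgens by glucuronidation, was at 3 reads against 13.2, a ratio of 71.1 (23.996 to 348), PRUNE2 had no read against 11.8, and CDH2, N-cadherin, was at 0.801 against 34.7. CAMK2N1, an inhibitor of CaM kinase II, at 168 against 37.2 and the serpin SERPINI1 at 50.5 against 11.4 were the members that were higher.

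Prostate lineage factors and receptor relatives gave a mixed picture. HOXB13, a prostate homeobox factor, was at 35.98 against 52.3, 1.45-fold lower and under the 2-fold line, and NR3C1, the glucocorticoid receptor, at 45.97 against 42.3, a ratio of 1.09 whose interval (0.976 to 1.21) includes 1. SOX9 at 88.97 against 16.6, ELF3 at 643 against 155, TRPS1 at 294 against 50.6 and GATA3 at 5.67 against 0.263 were higher, and AMACR, a prostate cancer marker, at 2.96 against 21.8 and ETV1 at 22.8 against 59.8 were lower. FOXA1 at 196 against 362, GATA2 at 148 against 269 and SPDEF at 67.5 against 114 were lower too, each under the 2-fold line. VCaP held 0.111, or 2 reads, of TRPS1 and of ETV1, and 52.5 of SOX9 and 88.8 of ELF3. Over the 15 counted factors 4 were at least 2-fold higher and 3 lower, with a median of -0.35, and 10 were below 0 and 5 above.

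Glucocorticoid targets were higher more often than lower, 7 against 3 of 17, with a median of 0.75, and NR3C1 itself was at 45.97 against 42.3. ERRFI1, a feedback inhibitor of ERBB receptors, was at 633 against 100.1, DDIT4, an inhibitor of mTORC1, at 419 against 64.2, and S100P at 260.1 against 1.64. FKBP5 and MAOA were the lowest members. Among steroid enzymes AKR1C1 and AKR1C2 were at 29.5 against 5.85 and 53.9 against 1.97, near-identical genes whose reads may be split, AKR1C3 was at 14.2 against 23.7, and SRD5A3, a reductase of the 5-alpha family, was at 19.1 against 50.7.

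Epithelial genes were widely higher. Of 34 counted luminal and simple-epithelial genes 15 were at least 2-fold higher and 2 lower, 28 were above 0, and the median was 0.79. KRT8, KRT18, KRT19 and KRT7, the keratins of simple epithelium, were all higher, KRT18 at 859 against 226 and KRT7 at 57.1 against 0.263. The protease inhibitors SPINT1 and SPINT2 were at 694 against 115.8 and 607 against 167, their target protease ST14 at 149 against 52.1, and JUP, plakoglobin, at 986 against 251. CDH1, E-cadherin, was at 528 against 377, 1.40-fold higher and under the 2-fold line. EPCAM, the epithelial adhesion molecule used to catch tumour cells, went the opposite way, at 62.2 against 471, 7.56-fold lower (7.08 to 8.09), with 68.9 in CWR-R1ENZR and 320.2 in VCaP.

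Basal and stratified-epithelial genes were higher at 6 of 11 counted members and lower at 1, with a median of 1.26. LAMB3, a laminin chain of epithelial basement membranes, was at 46.2 against 0.460, 100.3-fold higher (48.4 to 250.2), yet its partner chain LAMA3 was at 2.71 against 16.4, 6.06-fold lower (4.39 to 8.56). KRT15, a basal keratin, had no read in CWR-R1 against 19.8, at least 101-fold higher. Of the 31 basal genes on the list 16 were in both tables, so this describes a part of them. KRT15, LAMB3, TGM2 and TGM3 were counted only through the library labelled VCaPENZR, and LAMA3 only through CWR-R1. Over the 16 with no filter on level 8 were higher and 1 lower, with a median of 1.10.

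Mesenchymal genes split. Of 13 counted, 6 were at least 2-fold higher and 4 lower, with a median of -0.34 that becomes 0.54 when only genes at 10 or more are counted. VIM, vimentin, was low on both sides, at 3.20 against 7.36. SPARC at 11.4 against 0.197 and S100A4 were higher, and TNC and CDH2 were lower. Neuroendocrine genes were lower at 6 and higher at 2 of 12, with a median of -1.07. Over the 16 in both tables with no filter on level the median was -0.62. The higher members were the syntaxin STX1A at 68.8 against 12.1 and ENO2 at 1075 against 327. Some lower members were counted only through their level in CWR-R1, among them the vesicle proteins SYP and SNAP25. These were at 0.863 against 7.30 and 1 read against 8.81. SYP was at 32.7 in CWR-R1ENZR, above both.

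Genes that ERK signalling induces, and the inhibitors it calls up, were widely higher. Of 34 counted immediate early and ERK feedback genes 21 were at least 2-fold higher and 2 lower, 30 were above 0, and the median was 1.22. The ERK phosphatases led: DUSP4 was at 947 against 50.5 (18.7-fold; 17.4 to 20.2), DUSP6, the cytoplasmic one, at 69.6 against 8.75 (7.96-fold; 6.65 to 9.60), beside DUSP5. The ETS factors ETV4 and ETV5, targets of the same pathway, were at 98.1 against 12.95 and 82.8 against 23.8, and VCaP held no read and 2 reads of them. SPRY4, a receptor kinase inhibitor, was at 40.1 against 5.33, and JUND, JUNB and FOSL2, subunits of AP-1, were at 679 against 150.1, 244 against 79.8 and 73.6 against 15.6. At least 2-fold lower were MYC, a transcription factor of growth, at 83.2 against 400.3, 4.81-fold lower (4.54 to 5.11), and DUSP2, at 9.43 against 23.2. JUN, another subunit of AP-1, at 37.9 against 67.1 and IER2 at 168 against 221 were lower too, each under the 2-fold line. In CWR-R1ENZR, DUSP4 was at 337, DUSP5 at 72.3, DUSP6 at 97.9, ETV4 at 52.2 and ETV5 at 37.5, each above CWR-R1. CWR-R1ENZR held MYC at 203, below CWR-R1, and DUSP2 at 159, above both libraries.

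Receptors and ligands upstream of ERK differed by family. ERBB2, the receptor tyrosine kinase HER2, was at 899 against 149, 6.02-fold higher (5.76 to 6.30), with 683 in CWR-R1ENZR and 93.8 in VCaP. Its partner ERBB3 was at 149 against 279, 1.87-fold lower, and the ligand HBEGF at 38.02 against 8.09. In this family 3 of 10 counted were at least 2-fold higher and 0 lower, with a median of 0.80. The FGF receptors exchanged places: FGFR2 was at 20.8 against 0.526, 39.5-fold higher (19.8 to 92.2), and FGFR4 at 0.801 against 17.3, 21.6-fold lower (12.4 to 41.1), with FGFR1 and FGFR3 at 28.7 against 89.1 and 32.5 against 97.8. Among EPH receptors, which bind ephrins on neighbouring cells, EPHA7 was at 11.3 against 89.4 and EPHA4 had no read against 5.39, while EPHB3 was at 50.2 against 7.17. The 27 counted PDGF, MET, FGF and EPH genes held 8 higher and 6 lower, with a median of 0.25. In the IGF system the binding protein IGFBP3 was at 69.6 against 2.63, and CWR-R1ENZR and VCaP were both far higher at 782 and 784.

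Genes of p53 and of cell death showed no common shift. Of 33 counted p53 targets 7 were higher and 5 lower, with a median of 0.18. GDF15, a stress cytokine, was at 819 against 23.6, 34.7-fold higher (31.2 to 38.6). CDKN1A, the p21 inhibitor of cyclin kinases, was at 268 against 50.8, and PLK2 at 47.2 against 3.02. CWR-R1ENZR held 906, 612 and 75.6 of GDF15, CDKN1A and PLK2, and VCaP held 71.6, 307 and 34.1. BAX, which permeabilises mitochondria, was at 12.8 against 32.2, lower, as were the death receptor FAS at 3.33 against 10.7 and BTG1 at 83.00 against 263. Of 17 BCL2 family genes 0 were higher and 1, BAX, was lower, with a median of 0.15.

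DNA replication genes were lower almost throughout, most of them by less than 2-fold. Of 42 counted G1/S and replication genes 0 were at least 2-fold higher and 9 lower, but 40 had a log2 ratio below 0, as did 6926 of the 12048 genes, and the median was -0.69. The GINS subunit GINS3 was at 19.5 against 54.1, CDC45, which joins GINS in the replicative helicase, at 37.2 against 98.6, UHRF1, which copies DNA methylation, at 54.6 against 148, and TYMS, thymidylate synthase, at 86.02 against 230.5; each was 2.65- to 2.78-fold lower. Homologous recombination and Fanconi genes were also below 0, all 33 of them, with a median of -0.67, but the 3 that were at least 2-fold lower are a smaller share than the 11.3% of all genes. RAD51D was at 6.22 against 18.6, the helicase BRIP1 at 28.8 against 64.8 and MRE11A, which trims broken ends, at 11.2 against 25.1. Genes of mitosis did not follow. Of 39 counted, 0 were higher and 2 lower, 20 were above 0, and the median was 0.04; MKI67, the proliferation marker, was at 280.5 against 301. The exceptions were CENPE, a kinetochore motor, at 21.7 against 63.8 and the mitotic transcription factor FOXM1 at 131 against 307. With median-of-ratios scaling the replication median was -0.56 and the recombination median -0.51, and with deposited values unchanged the mitotic median was -0.05.

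The start regions of these replication genes carry a known E2F-type motif more often than promoters at large. The letters TTTCGCGC or TTTGGCGC, searched on both strands in the 300 bases around each start (RefSeq, GRCh38.p14), occur in 12 of the 37 replication genes matched (32.4%) and in 322 of all 27305 promoters (1.18%); the 2 forms can overlap on opposite strands. Stretches of 100 bases that lie upstream of the start and hold the motif, in capitals, are shown for the 4 genes with the lowest ratios among those with a motif upstream; they reach the start in POLE and MCM7 and end short of it in POLA1 and MCM6. They are POLE, catalytic subunit of the leading-strand polymerase (chr12:132687343-132687442, minus strand, 86.5 against 223), MCM7, a helicase subunit (chr7:100101398-100101497, minus strand, 302 against 627), POLA1, the polymerase of the primase complex (chrX:24693735-24693834, plus strand, 23.8 against 46.9), and MCM6, another helicase subunit, where both forms overlap (chr2:135876476-135876575, minus strand, 53.6 against 88.2).
POLE: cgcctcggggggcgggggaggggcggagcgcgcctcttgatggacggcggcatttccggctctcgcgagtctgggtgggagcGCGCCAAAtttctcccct
MCM7: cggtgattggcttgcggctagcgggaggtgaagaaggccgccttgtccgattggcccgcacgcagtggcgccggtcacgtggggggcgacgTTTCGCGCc
POLA1: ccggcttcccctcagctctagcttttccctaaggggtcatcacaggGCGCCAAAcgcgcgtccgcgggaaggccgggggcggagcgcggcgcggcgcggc
MCM6: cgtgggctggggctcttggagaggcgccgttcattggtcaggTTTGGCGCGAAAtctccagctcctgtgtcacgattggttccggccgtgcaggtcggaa
A match is a description of letters, not evidence that a factor binds. POLA2, E2F1 and E2F2 hold the motif before their start too, and were at 75.6 against 73.9, 142 against 150.1 and 103 against 114, so holding it did not go with a lower level at every gene.

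Ribosomal protein genes were mostly lower, by small amounts. Of 47 counted cytosolic ribosomal protein genes 0 were higher and 2 were lower (RPL6 at 755 against 1563 and RPS28 at 361 against 748), a smaller share than the 11.3% of all genes, while 42 were below 0, beside 6926 of the 12048 genes, and the median was -0.43. Oxidative phosphorylation had a median of -0.13, near that of all genes, with 1 of 58 higher and 2 lower: COX5B, a subunit of cytochrome oxidase, was at 429 against 143, and ATP5B and ATP5G1 of ATP synthase were at 1105 against 2793 and 42.1 against 101. With median-of-ratios scaling the ribosomal median was -0.30 and 0 genes were 2-fold lower. Ribosomal protein genes have many processed copies, so reads may be lost or shared there.

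Several genes of lipid synthesis were lower. Of 35 counted fatty acid genes 10 were at least 2-fold lower and 1 higher, with a median of -0.41. SREBF1, a factor that drives genes of lipid synthesis, was at 147 against 489. SCD was at 475 against 1730.3, 3.65-fold lower (3.55 to 3.74). The carboxylase ACACB at 3.82 against 39.6 and the elongase ELOVL2 at 4.74 against 57.2 were lower as well. Some genes that burn fatty acids were lower too: the dehydrogenases ACADL and ACADM were at 1.42 against 19.1 and 53.4 against 152. PDK4, a kinase that spares glucose, was at 17.01 against 139.7, 8.21-fold lower (7.24 to 9.34). DECR1, of unsaturated fatty acid oxidation, was the member that was higher, at 10.9 against 2.63. Cholesterol synthesis had a median of -0.55 with 4 of 27 lower and 2 higher. HMGCS1, the HMG-CoA synthase, was at 80.96 against 221, MVK, mevalonate kinase, at 13.6 against 35.1, and ABCG1, which exports cholesterol, at 20.03 against 6.51.

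Glycolysis and hypoxia genes were uneven, 10 higher and 5 lower of 38, with a median of 0.34. The glucose transporter SLC2A1 was at 135 against 43.5 and hexokinase HK1 at 687 against 195. ALDOA was higher, but PFKM was at 173 against 351 and GAPDH at 2548 against 3469.5. Of hypoxia targets the carbonic anhydrase CA12 was at 61.5 against 6.12 and the hormone STC1 at 39.1 against 4.93, and ANGPTL4, an inhibitor of lipoprotein lipase, was at 24.9 against 205, 8.23-fold lower (7.41 to 9.15).

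Iron and oxidant genes differed within families. FTH1 was 4.84-fold higher and FTL, the ferritin light chain, was at 392 against 828, 2.11-fold lower. SOD3 was higher while SOD1, the cytosolic enzyme, was at 167 against 188 and SOD2, the mitochondrial one, at 65.4 against 113. GPX3, a secreted glutathione peroxidase, was at 30.5 against 0.986, opposite to GPX1, and MGST1, a membrane glutathione transferase, was at 3.02 against 149.8, 49.6-fold lower (37.4 to 67.3). NQO1, a standard NRF2 target, was at 28.2 against 42.9, and the 33 counted NRF2 and antioxidant genes held 8 higher and 6 lower with a median of -0.15. Amino acid stress genes under ATF4 had a median of -0.04, which turns above 0 with size-factor scalings, with 3 of 40 higher and 5 lower; CHAC1 was at 15.9 against 2.89, and the mitochondrial folate enzyme ALDH1L2 at 5.36 against 126, 23.4-fold lower (18.9 to 29.4). Of 24 heat shock genes 5 were higher and 4 lower: CRYAB, a small heat shock protein, was at 12.4 against 0.526, HSPA2 at 125 against 37.9 and HSPB1 at 114 against 449.

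Genes of antigen presentation were higher, and interferon-stimulated genes were not. Of 19 counted MHC class I genes 9 were at least 2-fold higher and 0 lower, with a median of 0.57. B2M, the light chain of class I molecules, was at 974 against 298. NLRC5, the activator of these genes, was at 115 against 17.9 (6.41-fold; 5.64 to 7.30), and PSMB8, an immunoproteasome subunit, at 58.97 against 4.47 (13.2-fold; 10.3 to 17.1). Interferon-stimulated genes were higher at 1 and lower at 4 of 23, with a median of -0.46. ISG20 was at 32.7 against 5.06, IFI6 at 1.17 against 15.8, BST2 at 1.79 against 13.7 and IFIT5 at 3.27 against 12.4. IFI6, BST2 and IFIT5 were counted only through their level in CWR-R1. Over the 37 in both tables with no filter on level 2 were higher and 7 lower, with a median of -0.38. The NF-kB group held 4 higher and 0 lower of 12, with a median of 0.32, among them NFKB2 at 157 against 62.7, NFKBIZ at 39.99 against 5.98, TNFAIP2 at 62.7 against 14.3 and BIRC3 at 6.59 against 2.70.

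Most counted hepatic and intestinal genes were lower. Of 44 listed, 19 were in both tables and 13 were counted, mostly through their level in CWR-R1; 0 of these were higher and 11 were at least 2-fold lower, with a median of -3.84. The median was -2.58 over the 18 genes at a level of 1 or more and -1.40 over all 19, of which 12 were lower and 1 higher. The plasma protein APOH and the RNA-editing cofactor A1CF had no read against 27.8 and 31.6, at least 150.5- and 171-fold lower. The gut lectin LGALS4 was at 1.60 against 72.6, 45.3-fold lower (30.8 to 69.7). AGR2, a secretory-cell disulphide isomerase, was at 126 against 69.04.

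HOX genes, which set position along the body axis, were lower at 9 of 23 and higher at 0, with a median of -0.81. HOXC6 was at 12.1 against 71.7, HOXC4 at 5.30 against 26.6, HOXA13 at 1.17 against 14.3 and HOXD8 at 0.431 against 8.35. HOXA13 and HOXD8 were counted only through their level in CWR-R1. Over the 28 HOX genes in both tables with no filter 0 were higher and 10 lower, with a median of -0.78. Retinoic acid genes were higher at 7 of 13 and lower at 1, with a median of 1.03. The synthesising enzymes exchanged places, ALDH1A1 at 3.33 against 162 (48.8-fold lower; 37.3 to 65.2) and ALDH1A3 at 474 against 7.30, and CRABP2, which carries retinoic acid to the nucleus, was at 705 against 23.9 (29.4-fold; 26.5 to 32.8). Aryl hydrocarbon receptor genes were higher at 4 of 8 and lower at 0, with a median of 1.03. The receptor AHR was at 224 against 37.4, its target enzyme CYP1A1 at 308 against 32.6 and its repressor AHRR at 8.81 against 1.91. CWR-R1ENZR held 253, 289 and 18.1 of them. With no filter on level the median was 0.71 over 14 retinoic acid genes and 0.74 over 10 aryl hydrocarbon receptor genes.

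Developmental pathways differed gene by gene. In WNT signalling 4 of 27 were higher and 7 lower, with a median of -0.38: the receptor FZD8 was at 27.3 against 499, 18.3-fold lower (16.6 to 20.2), the ligand WNT5A at 0.801 against 17.95 and the ligand WNT7B at 223 against 20.3, 11.02-fold higher (9.81 to 12.4). LGR5, a stem cell receptor and WNT target, was at 1.36 against 11.4, with 39.03 in CWR-R1ENZR. In NOTCH signalling 3 of 18 were higher and 2 lower, with a median of 0.36, and its targets HES1 and HEY1 parted at 72.8 against 18.6 and 4.62 against 25.8. In TGF-beta and BMP signalling 8 of 33 were higher and 5 lower, with a median of 0.10 (-0.04 over the genes of all 3 tables): SMAD6, an inhibitory SMAD, was at 69.3 against 9.34, and INHBB, a subunit of activin B, at 0.863 against 51.4, 59.6-fold lower (35.3 to 109.5).

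Matrix, channel and transport genes gave values on both sides. Of 28 matrix, integrin and protease genes 6 were higher and 7 lower, with a median of -0.27: the inhibitor TIMP2 was at 167 against 29.5, perlecan HSPG2 at 125 against 21.3, the collagens COL9A2 and COL12A1 at 0.370 against 14.01 and 2.34 against 28.5, and the collagen-binding integrin ITGA1 at 2.09 against 28.8. Of 25 channels 8 were higher and 6 lower, with a median of 0.28; the potassium channel KCNK5 was at 75.4 against 11.97, the calcium channel CACNA1D at 21.3 against 1.71, and the calcium release channel RYR2 at 2.34 against 22.1, with 62.1 in CWR-R1ENZR. Of 17 ABC transporters 4 were higher and 3 lower, with a median of 0.26, with ABCA12 at 37.4 against 9.27 and ABCC6 at 0.801 against 6.18. Metallothioneins and zinc transporters were higher at 0 and lower at 4 of 12, with a median of -0.58: MT1E and MT2A were at 7.21 against 17.4 and 43.3 against 90.8, related genes whose reads may be shared, and the importer SLC39A8 at 11.2 against 87.9. Of 4 counted replication-dependent histone genes 3 were higher, and with no filter on level 3 of 13. Among them HIST1H1C, at 15.03 against 3.68, was counted only through the library labelled VCaPENZR. Most histone messages lack a polyadenylated tail, and copies are near-identical. Of 16 ETS factors 3 were higher and 1 lower, with a median of -0.12, and of 13 cancer-testis genes 2 were higher and 1 lower, with a median of 0.07 that turns below 0 with deposited values: VCX3A was at 42.02 against 13.2 and TEX15 at 3.39 against 28.5.

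Markers of other cell types stayed low on both sides. The fibroblast list had 4 of 10 genes in both tables with a summed level of 23.4 against 41.2, and LUM, lumican, was at 0.246 against 11.3. The endothelial list had 3 of 10 with 39.7 against 38.99, among them VWF at 19.2 against 5.59 and ENG at 1.73 against 21.8, and the blood list 3 of 14 with 12.1 against 4.87, among them CD68 at 10.2 against 2.63. PTPRC, PECAM1 and DCN, the defining blood, endothelial and fibroblast genes, have no value here. The part of other cells in any result above was not tested.

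Some differences ran along the genome. Windows of 25 counted neighbours, in RefSeq gene order, had median log2 ratios between -0.77 and 0.35 in the central 95% of 11397 windows, for the 11949 counted genes that could be placed. The highest window ran from RPL19 to RARA-AS1 and had a median of 1.03, with 13 genes at least 2-fold higher and 0 lower. It holds ERBB2 and its neighbours STARD3 at 103 against 32.4, MIEN1 at 287 against 53.7 and GRB7 at 255 against 37.4, while CDC6 and MSL1 further along were at 80.9 against 115.8 and 102 against 126. CWR-R1ENZR over CWR-R1 had a median of 0.89 in the same window, a ratio with the same denominator. RARA-AS1 lies antisense to RARA, and without known strand handling their reads cannot be told apart.

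The lowest windows lay elsewhere. From CNOT2 to LIN7A the median was -1.28, with 14 genes at least 2-fold lower and 2 higher: LGR5 and NAP1L1, a histone chaperone, were at 1.36 against 11.4 and 396 against 1036, and PHLDA1, an ERK target in the middle of it, was higher at 21.8 against 6.71. From SEMA3C to CYP51A1 the median was -1.12 and all 25 genes were below 0, 15 of them at least 2-fold. Its lowest members were CROT, a peroxisomal carnitine transferase, at 5.11 against 172 and STEAP2, and CACNA2D1, a calcium channel subunit, was at 3.08 against 17.6. A window from PEG10 to ZNF789, on the same side, had a median of -1.14 with 13 lower and 0 higher, and includes NPTX2 and PDK4. The medians of CWR-R1ENZR over CWR-R1 were -0.50, -0.89 and -0.65 in these windows. A window from PCDHB8 to ARHGAP26 had a median of 0.91 with 12 higher and 0 lower; it holds many protocadherin genes, which share sequence and so may share reads, beside unrelated genes such as HDAC3 and SPRY4.

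**Figure D5:**
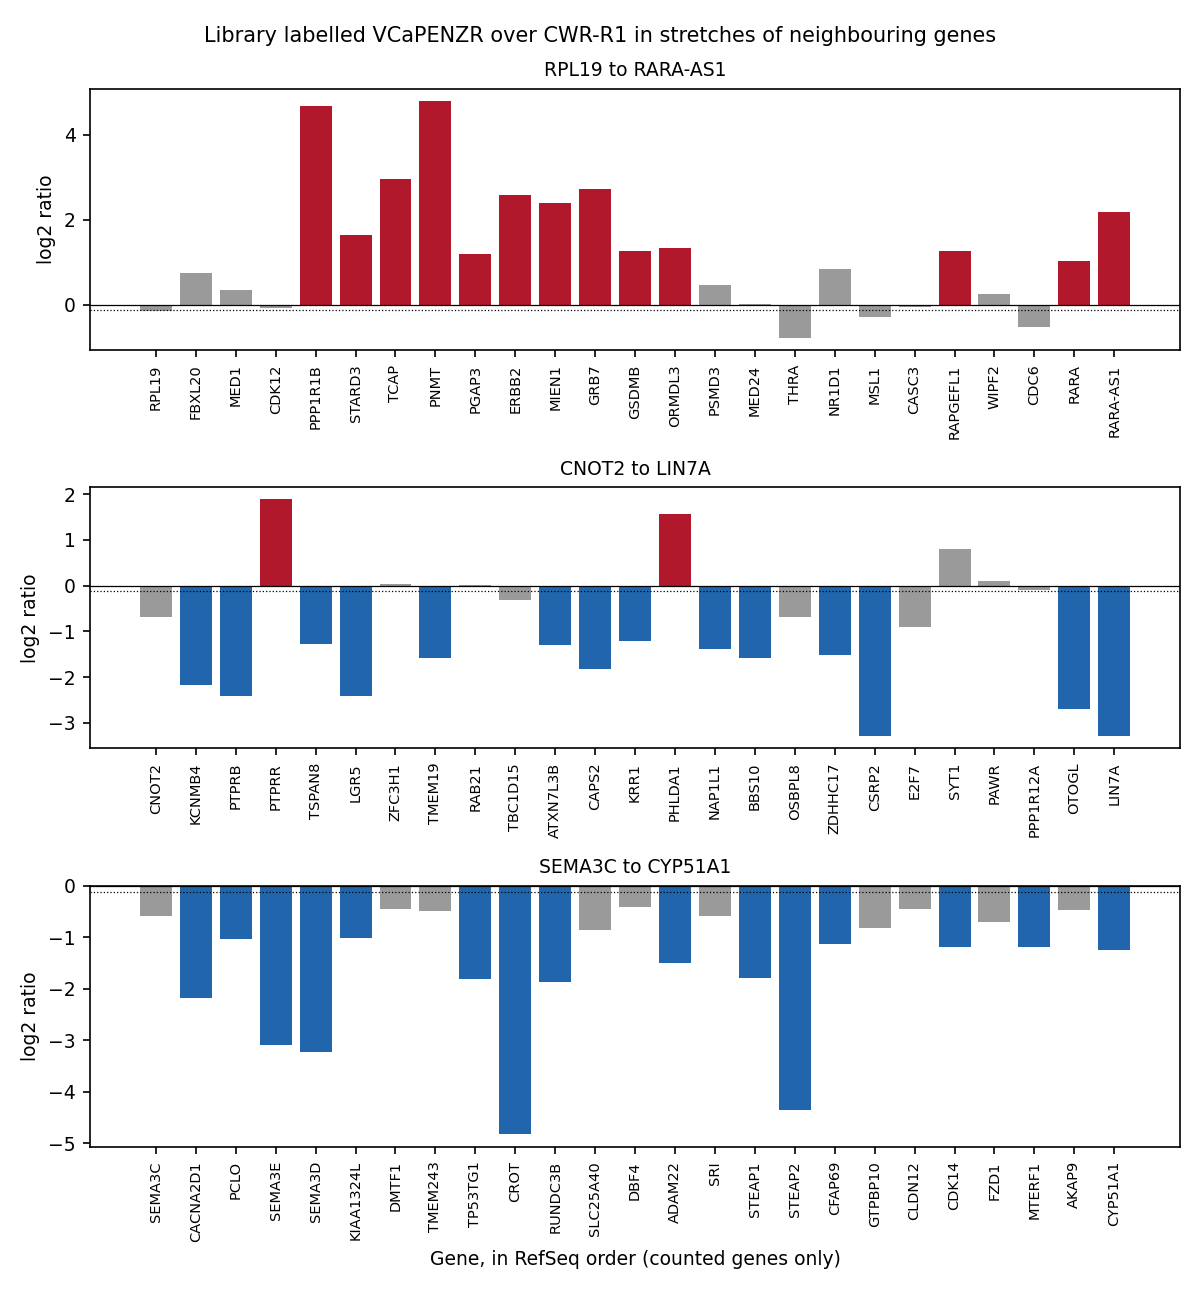
Log2 ratio of the library labelled VCaPENZR over CWR-R1 (vertical axis) for the 25 counted genes of 3 windows in RefSeq order (horizontal axis); red and blue bars are at least 2-fold higher and lower, and the dotted line is the median of all genes, -0.11. In the upper panel a block around ERBB2 is higher between neighbours within 2-fold, and in the lowest panel all 25 genes are below 0.

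Genes listed in 1 table only fall outside every count above. The CWR-R1 table lists 899 genes that the VCaP table does not, which held 0.272% of the CWR-R1 reads; 98 of them were at 5 or more on the deposited scale and 17 at 20 or more. PDGFRA, a receptor tyrosine kinase for platelet-derived growth factor, led with 517 in CWR-R1, or 7669 reads, against 0.670 in CWR-R1ENZR. CALB2, a calcium-binding protein of neurons and mesothelium, was at 61.5, GABRE, a GABA receptor subunit, at 40.1, LPAR3, a lysophosphatidic acid receptor, at 38.996, and C11orf96 at 30.9, and CWR-R1ENZR held 1.21, 3.02, 0.938 and 0.402 of them. The lowest larger value of any listed gene was 1.01 in each table. A gene listed by only the CWR-R1 table has no value here for the library labelled VCaPENZR, so no fold is given. In the other direction the VCaP table lists 890 genes of its own, which held 0.0390% of the reads in the library labelled VCaPENZR; 4 of them were at 5 or more and 0 at 20 or more. They were L1CAM, a neural adhesion molecule, at 19.4, CDA, cytidine deaminase, at 8.22, SLCO4A1-AS1, named as an antisense RNA, at 7.03, and CLEC7A, a lectin receptor, at 6.01.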

How the data were processed

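RNA purified on columns was digested with DNase I, and its polyadenylated fraction was read as 150 bp paired ends, per the labels' protocols. Reads were mapped to hg19, per the submitters' processing notes. No source used here names the aligner, the counter or the use of strand. For each lineage the authors supplied a table of normalized signal by gene and library. The deposited signal values are whole reads over a scaled library size: 100% were whole multiples of 1 read within 0.02 reads. The 3 tables were scaled separately by the authors, and their own comparison columns were left aside.

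Reads were recovered and rescaled to 1e+06 over the 13910 genes in both tables (Python 3.11.15, pandas 2.3.3, scipy 1.17.1). Log2 ratios used a pseudocount of 1 on genes at 5 or more in either library. No test or model was fitted, because each side holds 1 library. Counts were checked on simulated reads with 4-fold changes planted in well-read genes only. That does not check genes near 2-fold, genes near the level of 5 or the spread between libraries. Alternatives were other scalings (TMM from edgeR 4.0.16, median-of-ratios, deposited values), gene sets, pseudocounts, filters and thresholds. TMM factors were computed on the recovered reads, which are not a deposited count table. Replicates of C4-2B and C4-2BENZR are labelled as biological.

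Named genes were the 12 highest and 12 lowest ratios, the 8 largest gains and losses of level, up to 4 members per list with a 2-fold difference and up to 2 in the other direction, 12 identity genes, and the 5 highest genes listed in 1 table only. Genes named outside this rule were chosen after their values were seen, and some genes that it names are not reported here. The comparison, members and lists were chosen with earlier results of these data known. Of the list genes 17 matched by an older symbol. Gene order and promoters came from RefSeq (GRCh38.p14).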

Additional observations from a re-analysis of the deposited data

Results flagged for a closer look

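Some genes with a clear level in 1 library have no value in the other table, so they sit outside the comparison. In CWR-R1, 98 genes at 5 or more on the deposited scale are listed by the CWR-R1 table alone, with PDGFRA at 517 as the highest. In the library labelled VCaPENZR, 4 genes at 5 or more are listed by the VCaP table alone, with L1CAM at 19.4 as the highest.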

How the results depend on the processing

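The counts of genes at least 2-fold apart, 1030 higher and 1356 lower, stayed within 1.5 times under each other scaling, gene set, pseudocount and filter run, from 894 (genes of all 3 tables) to 1187 (median-of-ratios) higher and from 1105 (median-of-ratios) to 1599 (level of at least 1, or no filter) lower. At 1.5-fold the counts were 1837 higher and 2857 lower, and at 4-fold 371 higher and 366 lower, as another threshold must move them. Selecting genes at 4-fold between VCaP and CWR-R1, in place of 16-fold, left 83.3% of 1798 genes nearer to CWR-R1. Of the 184 named genes past 2-fold, 6 came under it in some setting, and 0 of the named log2 ratios past 2-fold reversed. The scalings shifted the median of all genes by 0.13 or less, and a pseudocount cannot turn a sign. These settings could therefore hardly reverse such a ratio. The medians of 6 lists changed sign in some setting: mesenchymal with a level of at least 10 (0.54), mitosis (-0.05), cancer-testis (-0.02) and heat shock (-0.07) with deposited values, ATF4 with median-of-ratios (0.08) and TMM (0.07) scaling, and TGF-beta over the genes of all 3 tables (-0.04). No paired analysis was possible because each side of the comparison holds 1 library. Depth limits genes near 3 reads, a level of 0.185 and 0.197, and nothing here measures how far a second library of either line would differ.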
